A study of Sus scrofa with 12 samples.

Results

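The 6 Hyperloaded libraries of pig ventral annulus fibrosus were examined on their own, as 6 of the 12 libraries in the series. All 6 are titled and labelled hyperloaded, with replicate numbers 1 to 6, and no other value chose them. The study asked what 1 session of repeated manual loading of the lumbar spine does to the transcripts of the disc. Anaesthetised, skeletally immature Duroc cross pigs of both sexes had a lumbar vertebra loaded by hand over some hours, some pigs once every 1 minute and the others once every 2 minutes, and the ventral annulus of the disc below it was frozen and powdered. By its methods, the 6 libraries came from 4 pigs across both of these intervals, and the 2 additional samples were powdered and extracted separately from annulus of the same pigs. The labels do not say which libraries share a pig, nor the loading interval, sex, age or body mass, so the libraries are not 6 independent animals, and p-values that treat them as such come out too small. For the same reason no correlation coefficient is given. Libraries of the Non-loaded Control pigs were not used here.

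The intervertebral disc is bounded by the annulus fibrosus, whose outer layers are fibrous and rich in type I collagen and whose inner layers are cartilage-like and rich in type II collagen and aggrecan. Ligament, vertebral bone, vessels, fat and skeletal muscle lie close to its ventral face. The gene ATP2A1 encodes the calcium pump SERCA1, which returns calcium to the sarcoplasmic reticulum of fast skeletal muscle fibres. COL2A1 encodes the chain of type II collagen, and COL1A2 encodes 1 of the chains of type I collagen. In bulk tissue, fewer cells of a type and less RNA per cell cannot be told apart.

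The sequences just before the starts of 5 genes are shown, because these genes mark the patterns described for the libraries. They are ATP2A1 and the fast myosin light chain gene MYL1 for muscle, COL2A1 and COL1A2 for the 2 zones of the annulus, and XPO7, the gene with the smallest spread across libraries. Each is the 200 bases before the gene start in RefSeq's annotation of Sscrofa11.1, read 5′ to 3′ on the strand of the gene. Capitals mark matches on either strand to the letters TATAAA, where the transcription machinery can bind upstream of a start, to CAGCTG (an E-box, bound by muscle regulators such as MYOD1 among others), to the core of a MEF2 site, or to GGGCGG (a GC box), which reads as its complement on the other strand.
ATP2A1, chr3:18544864-18545063, plus strand: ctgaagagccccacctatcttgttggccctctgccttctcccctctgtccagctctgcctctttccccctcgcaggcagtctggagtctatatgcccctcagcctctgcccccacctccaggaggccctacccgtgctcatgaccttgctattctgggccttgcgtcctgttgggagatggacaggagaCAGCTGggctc
MYL1, chr15:113051316-113051515, minus strand: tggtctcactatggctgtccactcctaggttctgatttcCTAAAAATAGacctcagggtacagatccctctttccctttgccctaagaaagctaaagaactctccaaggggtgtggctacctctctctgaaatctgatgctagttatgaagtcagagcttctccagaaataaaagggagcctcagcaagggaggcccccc
COL2A1, chr5:78380894-78381093, minus strand: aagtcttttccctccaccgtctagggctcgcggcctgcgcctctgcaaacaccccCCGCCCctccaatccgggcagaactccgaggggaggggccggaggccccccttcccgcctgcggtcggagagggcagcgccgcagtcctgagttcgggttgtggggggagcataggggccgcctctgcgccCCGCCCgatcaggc
COL1A2, chr9:74174284-74174483, plus strand: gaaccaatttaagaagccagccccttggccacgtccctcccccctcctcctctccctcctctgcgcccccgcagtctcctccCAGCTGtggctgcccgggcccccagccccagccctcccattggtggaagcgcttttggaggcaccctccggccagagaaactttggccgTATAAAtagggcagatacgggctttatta
XPO7, chr14:6187840-6188039, plus strand: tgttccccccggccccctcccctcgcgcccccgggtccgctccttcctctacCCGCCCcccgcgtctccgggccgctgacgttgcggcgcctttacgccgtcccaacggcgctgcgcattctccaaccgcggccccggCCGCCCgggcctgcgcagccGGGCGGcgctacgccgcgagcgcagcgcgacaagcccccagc
The MYL1 stretch holds the MEF2 core and that of ATP2A1 an E-box close to the gene start. Other muscle genes differed, as the stretches of TNNC2, NEB and PYGM, not shown, held none of these motifs. That of ACTA1, not shown either, held only GC boxes. The COL1A2 stretch holds TATAAA and an E-box, that of COL2A1 has 2 GC boxes and that of XPO7 has 3. Of the 44 listed skeletal muscle fibre genes with such a stretch, whether counted here or not, 27.3% held CAGCTG, compared with 11.2% of all 19531 protein-coding genes, and 15.9% against 7.68% held TATAAA. The MEF2 core was found for 4.55% of the fibre genes and 1.78% of all. Of 28 listed fibrous annulus genes, 17.9% held CAGCTG and 14.3% TATAAA, so the TATAAA share was not particular to muscle genes. Of 28 listed chondrocyte genes, 14.3% held CAGCTG and 7.14% TATAAA. Of 1220 constant transcripts (defined further on), 60.8% held GGGCGG against 43.8% of all genes, and 4.10% held TATAAA. The constant transcripts were drawn only from genes above a minimum mean level in these libraries, while all genes were taken whatever their level. Shares among all genes above that minimum were not computed. Whether these differences go with being constant, rather than with being expressed, was therefore not tested. A match is only a run of letters, and annotated starts can lie away from the start used in these tissues.

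The libraries held from 12483998 to 19298022 expected counts (estimated reads per gene, which need not be whole numbers), and 16126 to 17052 genes were above 0 in each. The CPM of ATP2A1 (its counts per 1e6 counts of the library) were 0.669 in replicate 1, 4588 in replicate 2, 117 in replicate 3, 12.5 in replicate 4, 7.62 in replicate 5 and 612 in replicate 6. The highest level was thus 6857 times the lowest, a range of 12.7 doublings. The 95% Poisson intervals, which cover counting error only, did not overlap between any neighbours in the order 1, 5, 4, 3, 6, 2. The lowest value rests on 12.9 counts, with an interval from 0.355 to 1.15 CPM. COL2A1 took 12.5% of all counts in replicate 1, 2.72% in replicate 2, 2.94% in replicate 3, 0.386% in replicate 4, 9.17% in replicate 5 and 0.236% in replicate 6. Replicates 1 and 5 were the high libraries, and replicates 4 and 6 the low ones. COL1A2 took 20.4, 7.70, 20.3, 23.7, 19.5 and 15.2% of counts in replicates 1 to 6. Its share was lowest in replicate 2, and among the other 5 libraries its highest share was 1.56 times the lowest. COL1A2 and COL2A1 together made up 10.4 to 32.9% of a library.

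**Figure D1:**
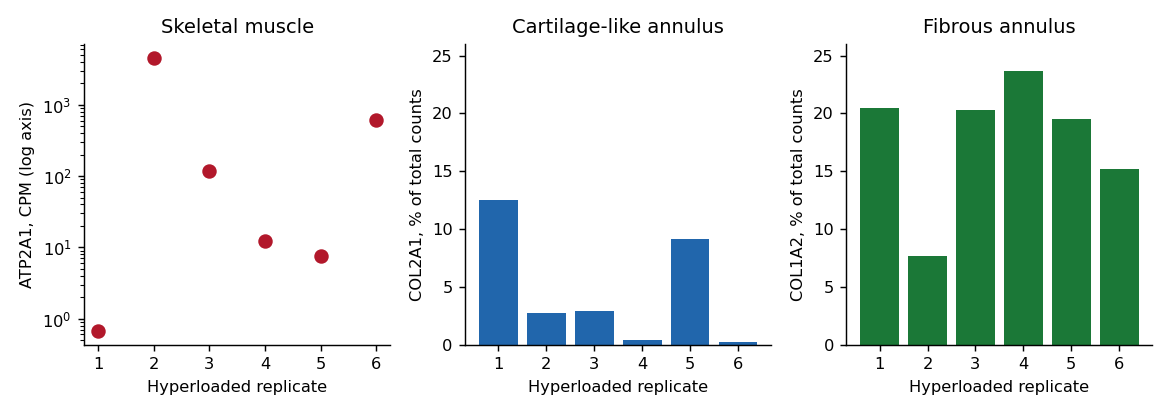
Levels of the 3 marker genes in each of the 6 Hyperloaded libraries. Points show ATP2A1 in CPM on a log axis, and bars show COL2A1 and COL1A2 as percent of total counts. ATP2A1 ran from 0.669 CPM in replicate 1 to 4588 CPM in replicate 2, COL2A1 was high in replicates 1 and 5, and COL1A2 was low in replicate 2.

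No pair of libraries was treated as repeat deposits of 1 library. Across genes with a mean of at least 10 CPM, the median absolute difference between 2 libraries ran from 0.22 on the log2 scale (replicates 1 and 5) to 0.52 (replicates 2 and 5), while counting error alone would give 0.06 to 0.08, which does not say which libraries share a pig. Library sizes were scaled by TMM (trimmed mean of M values). The differences above, on log2 (CPM + 1), and all gene levels from here on are from TMM-scaled CPM. For each marker, a slope was fitted per gene with edgeR's quasi-likelihood model, as the change in log2 CPM per doubling of the marker. The marker was taken per total counts, without TMM scaling, whose factors ran from 0.786 (replicate 1) to 1.25 (replicate 6). A slope of 1 is therefore only roughly that of a gene in proportion to the marker. It is least exact for COL1A2, which ranged over only 3.08-fold. Genes needed at least 10 counts in all 6 libraries, which left 12061 genes beside the marker itself. A gene is said to have risen or fallen with a marker where the p-value, adjusted by Benjamini-Hochberg over all of these, was under 0.05.

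With ATP2A1, 269 genes rose (2.23% of those tested) and 170 fell (1.41%), and genes of skeletal muscle fibres were among those that rose. Of 53 genes listed as markers of fast, slow or both kinds of muscle fibre, 32 were found by symbol and 20 had enough counts in every library. Of the 19 besides ATP2A1, 17 rose and none fell. The 7 other fast fibre genes all rose, with a median slope of 0.89, against 0.00 over all genes. Without replicate 2, 26 genes rose and none fell, and the 26 include these 7. The other fibre lists kept fewer calls. Of 2 slow fibre genes that rose, 1 was still called without replicate 2, and of 8 genes of both fibre types, 3 were. The balance of the 2 directions depends on the scaling, since 61.3% of the called genes rose under TMM, 93.4% with library sizes left unscaled and 50.5% with upper-quartile factors.

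TNNC2, the calcium sensor troponin C of fast fibres, had 1.11 CPM in replicate 1, 3350 in replicate 2, 104 in replicate 3, 9.75 in replicate 4, 6.24 in replicate 5 and 444 in replicate 6. The 6 libraries thus lay in the same order for TNNC2 as for ATP2A1. Its slope was 0.93 (standard error 0.04, edgeR adjusted p = 4.1e-05). MYL1, the essential light chain of fast myosin, had 1.38, 4461, 121, 11.6, 6.36 and 603 CPM in replicates 1 to 6, with a slope of 0.95 (standard error 0.04, edgeR adjusted p = 6.6e-05). NEB, which encodes the giant thin-filament protein nebulin, had 0.854, 2469, 59.1, 5.84, 4.20 and 431 CPM and a slope of 0.95 (standard error 0.05, edgeR adjusted p = 9.3e-05). Each of these 3 genes was highest in replicate 2 and lowest in replicate 1.

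MYH8, named for a perinatal myosin heavy chain, had the largest slope among genes with a symbol and a mean of at least 5 CPM, at 1.00 (standard error 0.04, edgeR adjusted p = 4.1e-05). It reached 18734 CPM in replicate 2, but myosin heavy chain genes are near copies of each other and the assignment of reads among them is uncertain. ACTA1, the actin of skeletal muscle, was the most abundant member of these lists, at 10.7, 22558, 582, 50.6, 33.2 and 2226 CPM in replicates 1 to 6, and its slope was 0.89 (standard error 0.06, edgeR adjusted p = 0.00059). PYGM, the glycogen phosphorylase of muscle, had a slope of 0.92 (standard error 0.04, edgeR adjusted p = 4.3e-05) and ran between 1.57 CPM in replicate 1 and 4759 CPM in replicate 2. SLN, which encodes sarcolipin, a small inhibitor of the calcium pump, had a slope of 0.91 (standard error 0.05). MYL11, the regulatory light chain of fast myosin, and MYBPC2, the fast myosin-binding protein C, had slopes of 0.90 and 0.91.

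The ratio of 1 muscle gene to another within a library needs no scaling, and for TNNC2, PYGM and MYH8 it moved far less than the levels did. Counts of TNNC2 per count of ATP2A1 were 1.31, 0.824, 0.860, 0.858, 0.701 and 0.904 in replicates 1 to 6. For PYGM the ratio lay between 1.08 and 1.85, and for MYH8 between 2.98 and 4.61. The highest ratio was in replicate 1 for TNNC2 and PYGM, where ATP2A1 rests on 12.9 counts. Other muscle genes ranged more widely, NEB over 2.13-fold, MYL1 over 2.28-fold, MYL11 and MYBPC2 over 3.06-fold and SLN over 3.08-fold. The ranges were 3.36-fold for ACTA1, 11.8-fold for DES and 146-fold for FBXO32. Among slow fibre genes, the ratio of MYBPC1 ranged over 3.27-fold, much as for those fast fibre genes, and that of TNNT1 far more. TNNT1, the troponin T of slow fibres, gave 1.93, 0.279, 0.140, 0.0240, 0.160 and 0.314 counts per count of ATP2A1, a range of 80.5-fold. Replicate 4 was the low one, with 4.07 counts of TNNT1 in all. Of the 6 slow fibre genes found, TNNT1, TNNC1, TNNI1 and MYL3 missed the count minimum in some library. MYBPC1, the slow myosin-binding protein C, and CA3, the carbonic anhydrase of muscle, were tested and rose, with slopes of 0.99 and 0.83.

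**Figure D2:**
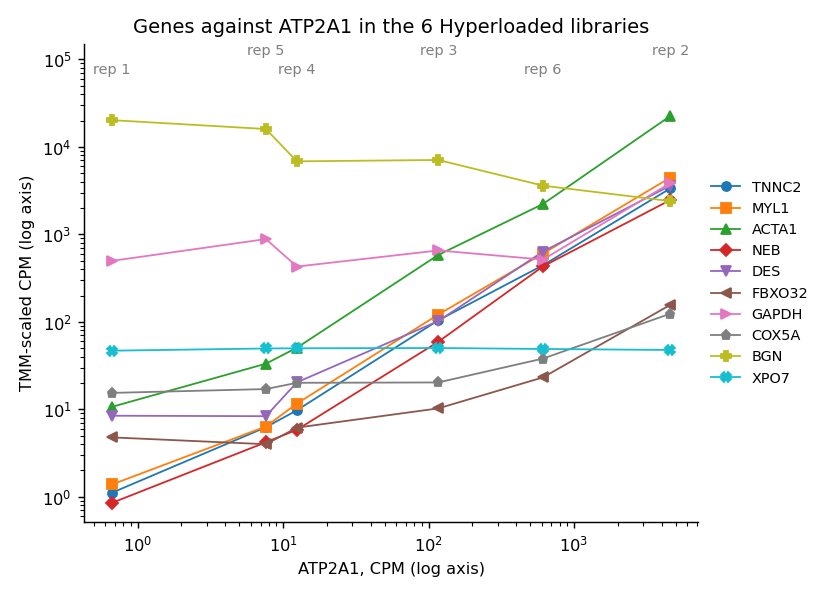
TMM-scaled CPM of 10 genes (log axis) against CPM of ATP2A1 (log axis) in the 6 Hyperloaded libraries, marked along the top by replicate number. TNNC2, MYL1, ACTA1 and NEB climbed in step with ATP2A1, FBXO32, COX5A and GAPDH were high in replicate 2, BGN declined, and XPO7 stayed between 46.8 and 50.2 CPM.

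Other genes of the fibre lists had smaller slopes. DES, the intermediate filament protein desmin, had 8.45 and 8.35 CPM in replicates 1 and 5 and reached 3603 CPM in replicate 2, with a slope of 0.72 (standard error 0.08, edgeR adjusted p = 0.0073). FBXO32, the ubiquitin ligase atrogin-1 of wasting muscle, had 4.77, 156, 10.2, 6.17, 3.99 and 23.2 CPM in replicates 1 to 6 and a slope of 0.41 (standard error 0.06, edgeR adjusted p = 0.027). Its counterpart TRIM63, the ligase MuRF1, had a slope of 0.72 (standard error 0.08). JPH1 and SGCA, which encode the membrane-linked proteins junctophilin and alpha-sarcoglycan, were the 2 fibre genes that did not pass, with slopes of 0.24 and 0.25. JPH1 stood at 14.2 CPM or more in every library.

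Of 8 tested genes of muscle glycolysis and energy supply, 4 rose with ATP2A1, namely PYGM, PFKM (the muscle phosphofructokinase), PHKA1 (a phosphorylase kinase subunit) and SLC25A4 (the ATP/ADP carrier of muscle mitochondria). PFKM had 14.4 to 31.0 CPM in replicates 1, 3, 4 and 5, 124 in replicate 6 and 838 in replicate 2. Of 39 tested nuclear genes of the respiratory chain, 3 rose, and the list had a median slope of 0.11. COX5A, a subunit of cytochrome c oxidase, had 15.4 to 20.3 CPM in replicates 1, 3, 4 and 5, and 124 CPM in replicate 2, with a slope of 0.23 (standard error 0.04, edgeR adjusted p = 0.034). Of 25 proteasome genes, 5 rose, among them PSME4, an activator of the proteasome, with 39.7 to 86.9 CPM in 5 libraries and 315 CPM in replicate 2. None of the respiratory chain or proteasome genes was called without replicate 2. Genes encoded by the mitochondrial genome itself, chosen after their values were seen, took 1.63, 6.91, 3.38, 2.51, 1.09 and 4.22% of counts in replicates 1 to 6.

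The genes that fell with ATP2A1 had shallow slopes, none steeper than that of FGFR2, a fibroblast growth factor receptor, at -0.31 (standard error 0.04, edgeR adjusted p = 0.017) among genes with a symbol and a mean of at least 5 CPM. FGFR2 had 17.9, 0.945, 4.22, 3.47, 6.00 and 1.80 CPM in replicates 1 to 6, highest in replicate 1 and lowest in replicate 2. PAX1, a transcription factor of the sclerotome from which the disc forms, had 86.3, 9.55, 28.2, 32.1, 65.4 and 16.6 CPM and a slope of -0.25 (standard error 0.03, edgeR adjusted p = 0.0099). SMOC1, a secreted calcium-binding matrix protein, had 220, 19.2, 64.0, 77.1, 57.8 and 22.2 CPM. NR4A2, an immediate early nuclear receptor, had 503 CPM in replicate 1, 30.5 in replicate 2 and 84.7 to 197 in the others, and was the 1 of 13 immediate early genes that fell. BGN, the proteoglycan biglycan, was the 1 of 28 fibrous annulus genes that fell, with 20207, 2399, 7088, 6833, 16012 and 3605 CPM and a slope of -0.25 (standard error 0.05, edgeR adjusted p = 0.036). With replicate 2 left out, no gene fell, while the slopes of FGFR2 and PAX1 were -0.30 and -0.24. Replicates 1 and 5, the lowest in ATP2A1, were also the highest in COL2A1. With the COL2A1 share as a second term, 74 genes fell with ATP2A1, against 170 without it.

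Of the genes that fell, 6 that act in collagen assembly were picked out because they fell, so they say nothing of such genes as a group. They were PLOD1, a lysyl hydroxylase, P3H1, P3H3 and P4HA2, which are prolyl hydroxylases or belong to that family, LOXL1, a lysyl oxidase, and PCOLCE, an enhancer of procollagen processing. PCOLCE had 3372, 615, 1972, 2565, 3251 and 1287 CPM in replicates 1 to 6, with a slope of -0.19 (standard error 0.04, edgeR adjusted p = 0.044). P4HA2 had 467, 82.8, 254, 272, 528 and 77.9 CPM, with a slope of -0.24. Replicates 1 and 5 were the 2 highest libraries for PLOD1, P3H1, P3H3, P4HA2 and LOXL1, and replicates 2 and 6 the 2 lowest. COL1A2 itself had a slope of -0.14 (standard error 0.07, edgeR adjusted p = 0.25) on ATP2A1 and COL2A1 one of -0.25 (standard error 0.13, edgeR adjusted p = 0.29), so neither collagen passed the test.

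Markers of other cell types were read against the 2.23% of all genes that rose and the 1.41% that fell. None of 11 endothelial genes and none of 16 macrophage and monocyte genes passed, counts too small to set apart from those shares, with median slopes of 0.01 and -0.03. PECAM1, an adhesion molecule of endothelium, had 253 to 276 CPM in 5 libraries and 385 CPM in replicate 3. SPI1, the myeloid transcription factor PU.1, had 12.6 to 18.2 CPM throughout. Of 10 smooth muscle and pericyte genes, 1 rose, SYNPO2, an actin-binding protein of striated and smooth muscle, with 438 CPM in replicate 2 and 25.8 to 116 CPM in the others, while ACTA2, smooth muscle actin, ranged from 76.3 to 250 CPM with a slope of 0.02. None of 16 chondrocyte and inner annulus genes passed, although their median slope was -0.16. MYF6, a regulator of muscle cell fate, was too low to test. It had 0 CPM in replicate 1, 128 in replicate 2, 3.78 in replicate 3, 0.339 in replicate 4, 0.0940 in replicate 5 and 10.0 in replicate 6.

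**Figure D3:**
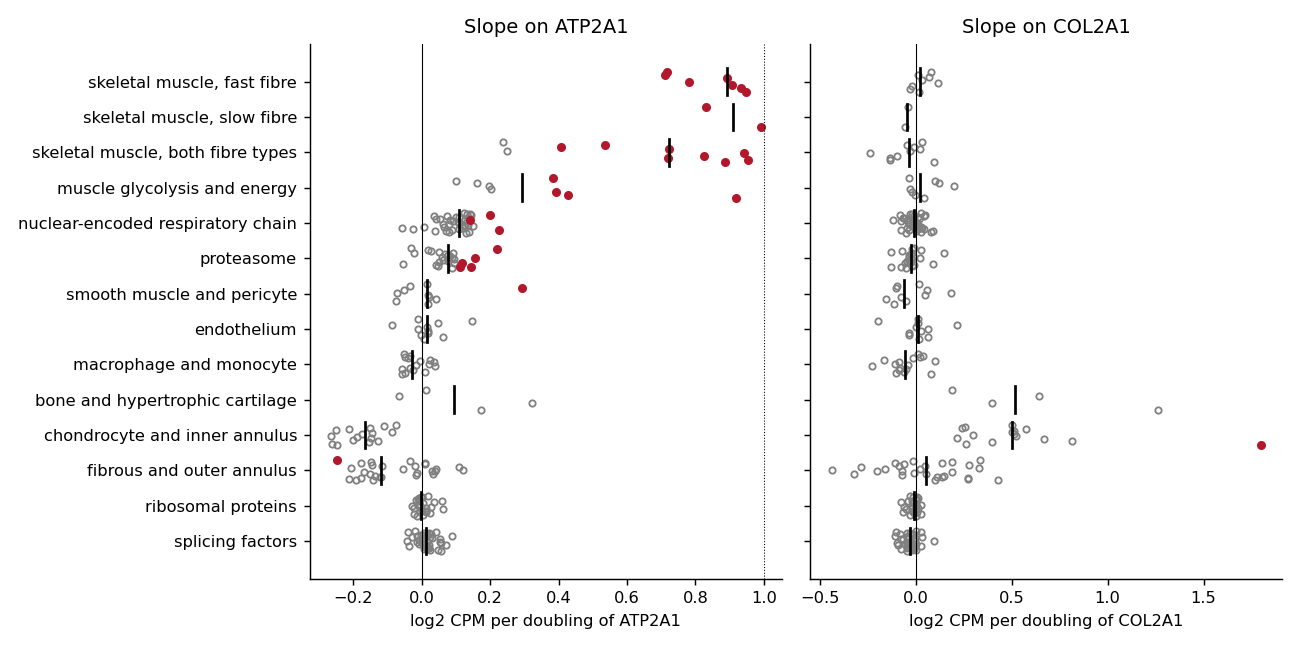
Slope of each member of 14 gene lists on ATP2A1 (left) and COL2A1 (right), as log2 CPM per doubling of the marker in the 6 Hyperloaded libraries. Filled points passed an adjusted p under 0.05, open points did not, vertical bars are list medians and the dotted line marks a slope of 1. Muscle fibre genes lay up to 0.99 on ATP2A1, and chondrocyte genes lay above 0 on COL2A1.

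Along the COL2A1 share, 1 gene rose (0.00829% of 12061) and none fell (0%), by edgeR, with 711 genes at an unadjusted p under 0.05. Chance alone takes about 1 in 20 genes past that unadjusted limit, so the 711 are not read as genes that follow COL2A1. DESeq2, run as an alternative, called 103 genes higher and 59 lower. The gene that rose was COL9A1, a chain of the type IX collagen that coats type II fibrils, at 3854 CPM in replicate 1, 468 in replicate 2, 242 in replicate 3, 6.70 in replicate 4, 1444 in replicate 5 and 2.77 in replicate 6. Its slope was 1.80 (standard error 0.15, edgeR adjusted p = 0.048), steeper than in proportion to COL2A1. It passed narrowly, and when replicates were left out in turn it passed only without replicate 2, with an edgeR adjusted p of 0.00055.

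All 15 tested chondrocyte and inner annulus genes other than COL2A1 had a positive slope on COL2A1, with a median of 0.50 against 0.00 over all genes. A positive slope was not particular to this list. It was also found for 4 of 4 bone and hypertrophic cartilage genes (median 0.52) and 13 of 14 hypoxia and glycolysis targets (median 0.11). Of 13 immediate early genes 12 had one, and of 39 nuclear respiratory chain genes 18 had one. ACAN, the large proteoglycan aggrecan, had 3661, 1181, 2835, 464, 7002 and 195 CPM in replicates 1 to 6, with a slope of 0.81 (standard error 0.14, edgeR adjusted p = 0.20). HAPLN1, the link protein that fixes aggrecan to hyaluronan, had 1747, 558, 1238, 206, 1471 and 122 CPM and a slope of 0.67. CHAD, the cartilage protein chondroadherin, had 1240, 434, 323, 171, 985 and 161 CPM and a slope of 0.51. SOX9, the transcription factor of chondrocytes, was highest in replicate 5 (407 CPM) and lowest in replicate 6 (25.7 CPM). For all 5 of COL9A1, ACAN, HAPLN1, CHAD and SOX9, replicate 6 was the lowest library. Without replicate 2, 30 genes rose and 7 fell, and the 30 include 6 of the chondrocyte list, namely COL9A1, ACAN, HAPLN1, HAPLN3, CHAD and CILP2.

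Some cartilage genes were present in a few libraries only and could not be tested. CNMD, which encodes chondromodulin, a blocker of vessel growth in cartilage, had 199 CPM in replicate 1, 29.0 in replicate 2 and 16.5 in replicate 5, against 2.03 or less in the others. MATN1, a matrilin of cartilage, had 32.4 CPM in replicate 1 and 4.63 in replicate 2, and 0.138 CPM or less in the rest. CYTL1, a secreted protein of cartilage, had 46.3 and 59.4 CPM in replicates 1 and 2 and 0.401 or less in the rest. Replicate 5, with the second highest COL2A1 share, thus had MATN1 and CYTL1 at or near 0. EPYC, the cartilage proteoglycan epiphycan, and SHH, a signal of the notochord, were at 0 counts in all 6 libraries.

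**Figure D4:**
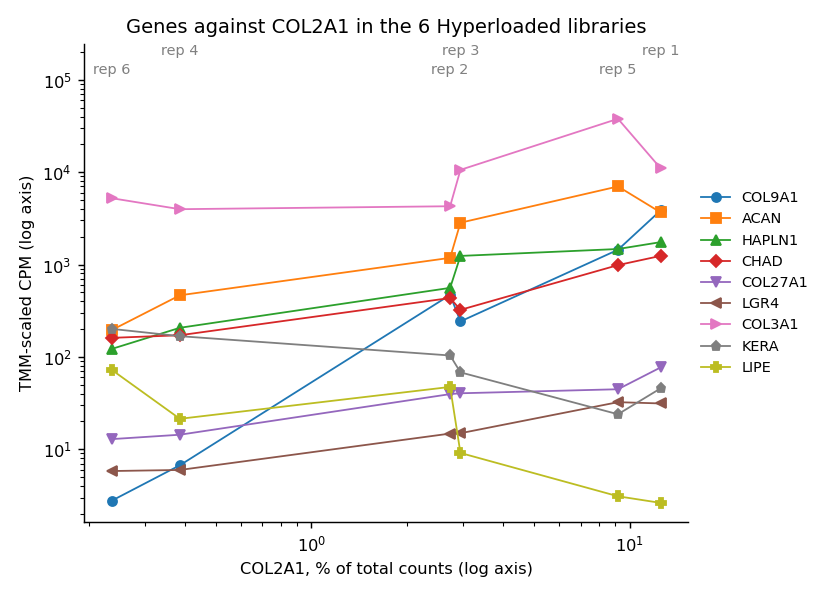
TMM-scaled CPM of 9 genes (log axis) against the COL2A1 share of total counts (log axis) in the 6 Hyperloaded libraries, marked along the top by replicate number. COL9A1 ran from 2.77 CPM in replicate 6 to 3854 CPM in replicate 1, ACAN and HAPLN1 were lowest in replicate 6, and KERA and LIPE were highest there.

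No gene fell with COL2A1, so those that were higher where COL2A1 was low are given as values. KERA, the corneal and tendon proteoglycan keratocan, had 201 CPM in replicate 6, 168 in replicate 4, 103 in replicate 2, 67.9 in replicate 3, 45.6 in replicate 1 and 23.9 in replicate 5, with a slope of -0.44 (standard error 0.08, edgeR adjusted p = 0.31). TNMD, the tendon and ligament protein tenomodulin, had 809 and 649 CPM in replicates 4 and 6 and 160 to 353 CPM in the others, with a slope of -0.32. Members of the fibrous list split in direction on COL2A1, with 16 of 28 slopes above 0. COL3A1, the chain of type III collagen, had 37817 CPM in replicate 5 and 3971 to 10994 CPM in the others, and DCN, the proteoglycan decorin, had 5504 and 4950 CPM in replicates 6 and 4 and 2390 to 3550 CPM in the rest.

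Along the COL1A2 share, 28 genes rose (0.232% of 12061) and 484 fell (4.01%). This axis rests on replicate 2, which had the lowest COL1A2 share and the highest ATP2A1 level. Without replicate 2, edgeR called no gene in either direction, and none was called with ATP2A1 as a second term. The genes that fell with COL1A2 most steeply were of muscle, among them ACTN2, the alpha-actinin of the Z-disc, with 2146 CPM in replicate 2 and 4.08 to 319 CPM in the others, and DES. Of 39 nuclear respiratory chain genes, 28 fell with COL1A2, and these fits share all 6 libraries with those on ATP2A1. Among the genes that rose were RET, a receptor tyrosine kinase, with 178, 32.5, 183, 225, 167 and 70.3 CPM in replicates 1 to 6, and VCAN, the large proteoglycan versican, with 827, 183, 534, 874, 607 and 323 CPM. VCAN had a slope of 1.40 (standard error 0.28, edgeR adjusted p = 0.036). None of the 27 fibrous annulus genes besides COL1A2 passed, and their slopes had a median of 0.97, which was 0.12 without replicate 2.

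Levels within the fibrous list differed widely between members. SPARC, a collagen-binding matrix protein, had 5419, 1082, 3153, 3956, 5852 and 2567 CPM in replicates 1 to 6. FMOD, the collagen-binding proteoglycan fibromodulin, had 5211 to 27593 CPM, and COL14A1, which decorates type I fibrils, had 1555 to 6510 CPM, each lowest in replicate 2. LUM (lumican), MKX, the tendon transcription factor mohawk, and FN1 (fibronectin) differed by less than 2-fold between any 2 libraries. LUM had 103 to 174 CPM and FN1 2617 to 4562 CPM.

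Some genes set single libraries apart, and these were picked out after their values were seen and carry no test. By a rule of at least 10 CPM and over 4 times the next library plus 1 CPM, 217 genes were particular to replicate 2, 7 to replicate 1, 5 to replicate 3, 4 to replicate 5, 2 to replicate 6 and 0 to replicate 4. The 217 overlap with the muscle genes already described, since they include ATP2A1 itself, 28 members of the fibre lists and 78 genes that rose with ATP2A1, and 192 were next highest in replicate 6. A further 23 were tested and did not pass, and 116, counting ATP2A1, were not tested on it. Outside muscle, replicate 2 held COL10A1, the collagen of hypertrophic cartilage, at 367 CPM against 0.618 CPM or less elsewhere. It also held DMP1, a matrix protein of osteocytes, at 71.6 CPM against 2.23 to 4.13 CPM, and MMP9, a protease of osteoclasts and neutrophils, at 125 CPM against 0.0689 to 3.60 CPM. IBSP, bone sialoprotein, was high in more libraries, with 40.8, 262, 131, 4.29, 92.0 and 1.09 CPM in replicates 1 to 6. Replicate 3 held MMP1, interstitial collagenase, at 608 CPM against 8.56 to 30.5 CPM, MMP12, a macrophage elastase, at 79.5 CPM against 1.70 CPM or less, and NOS2, inducible nitric oxide synthase, at 45.3 CPM against 1.33 to 6.09 CPM. Replicate 5 held CYP26B1, which degrades retinoic acid, at 278 CPM against 18.6 to 68.0 CPM.

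Among fat cell genes, PLIN1, PLIN4 and LIPE followed a further order. PLIN1, the perilipin that coats fat droplets, had 0.197 CPM in replicate 1, 22.4 in replicate 2, 10.5 in replicate 3, 17.3 in replicate 4, 0.470 in replicate 5 and 30.1 in replicate 6. PLIN4 had 0.394, 173, 28.8, 58.8, 1.40 and 78.9 CPM, and LIPE, the hormone-sensitive lipase, 2.62, 47.3, 9.11, 21.3, 3.09 and 72.4 CPM. For all 3 of PLIN1, PLIN4 and LIPE, replicates 1 and 5, the libraries highest in COL2A1, were the lowest. None of the 4 adipocyte genes with enough counts passed on any of the 3 axes with all 6 libraries. Their slopes on COL2A1 ran from -0.66 to -0.04, and without replicate 2, 1 of the 4 fell with COL2A1. LIPE had slopes of 0.36 on ATP2A1 (standard error 0.10, edgeR adjusted p = 0.074) and -0.66 on COL2A1 (standard error 0.23, edgeR adjusted p = 0.75). Replicate 4 had 11.4 CPM of ATP2A1 but more PLIN1 than replicate 3, which had 121 CPM of ATP2A1.

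Among transcripts with a mean of at least 10 CPM, 1705 of 7378 (23.1%) were constant, meaning that the highest library was under 1.5 times the lowest. The median gene had a ratio of 1.87 between its highest and lowest library and a coefficient of variation of 23.6%. XPO7, a nuclear transport receptor, had the smallest spread, with 46.8, 47.7, 50.2, 49.8, 49.6 and 48.9 CPM in replicates 1 to 6 and a coefficient of variation of 2.75%. SF3B2, a splicing factor, had 77.7 to 86.1 CPM, EP300, a histone acetyltransferase, ranged over 1.12-fold, and SP1, a transcription factor that binds GC boxes, had 27.8 to 31.2 CPM. BRWD3, GRK2 (a kinase of G protein-coupled receptors), VPS54 (vesicle transport), CTIF (cap-dependent translation), STAG1 (a cohesin subunit) and INTS14 (Integrator complex) made up the rest of the 10 named genes of lowest spread, each within 1.12-fold.

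Groups of housekeeping genes differed in how many members were constant. Of 26 ribosomal protein genes with a mean of at least 10 CPM, 22 were constant, and of 37 splicing factors, 22 were. Of 37 nuclear respiratory chain genes, 1 was, and of 28 fibrous and 20 chondrocyte genes, none was. Of 15 genes in common use as references for RT-qPCR, 5 were constant, RPL4, IPO8, TOP2B, RPS18 and CASC3. RPS18, of the small ribosomal subunit, had 311 to 379 CPM and TOP2B, a topoisomerase, had 89.6 to 109 CPM. GAPDH, the glycolytic enzyme that the study used as its RT-qPCR normaliser, had 498, 3858, 655, 428, 883 and 515 CPM, a 9.01-fold range, with replicate 2 apart from the others. Its slope on ATP2A1 was 0.20 (standard error 0.06, edgeR adjusted p = 0.11), and it fell with COL1A2 at a slope of -1.83 (standard error 0.30, edgeR adjusted p = 0.017). ACTB, cytoplasmic actin, ranged over 1.78-fold and YWHAZ, a 14-3-3 protein, over 3.04-fold.

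**Figure D5:**
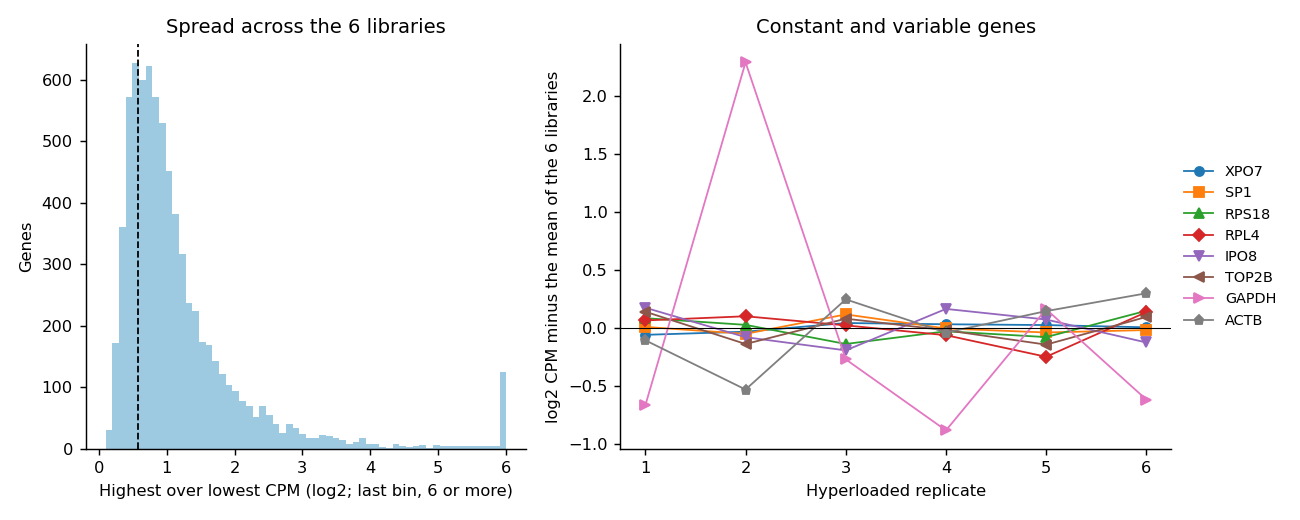
Left, a histogram of the highest over the lowest TMM-scaled CPM (log2) of 7378 genes across the 6 Hyperloaded libraries, with the dashed line at 1.5-fold. Right, log2 CPM of 8 genes minus their mean over the 6 libraries, by replicate, in which GAPDH stands above its mean in replicate 2 and XPO7 stays near 0.

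Among genes that the study singled out or measured by RT-qPCR, spread within the Hyperloaded libraries was wide. CCL2, a chemokine for monocytes, had 76.7, 50.9, 115, 38.3, 19.2 and 89.1 CPM in replicates 1 to 6, and ADAMTS4, an aggrecanase, had 108, 187, 323, 85.8, 27.9 and 267 CPM. Both were lowest in replicate 5 and highest in replicate 3. CCL2 had slopes of 0.03 on ATP2A1 (standard error 0.07) and -0.05 on COL2A1 (standard error 0.15), and neither passed. Of 12 such genes with enough counts, 1 passed on ATP2A1, FBLN7, a fibulin, which fell with a slope of -0.20 (standard error 0.04, edgeR adjusted p = 0.041). Without replicate 2, 1 of them passed on COL2A1, ACAN.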

How the data were processed

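RNA of ventral annulus from the 6 Hyperloaded libraries was used. Per the labels, RNA was extracted with a kit for fibrous tissue and made into TruSeq mRNA libraries, and the submitters' processing notes name CASAVA and the build Sscrofa11.1. By the methods, the authors mapped reads in JMP Genomics with a small number of mismatches allowed. They deposited 1 table of expected counts for 22198 genes, not normalized, whose values need not be whole. The genes carry Ensembl identifiers, but the Ensembl release is not given in the sources used here and may be older than the build named, so positions and sequences were taken from RefSeq by symbol. A symbol was found for 11789 identifiers (53.1%), of which 89 came from names in the tables of the paper, COL2A1 among them.

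Expected counts were rounded for the fits. Slopes were fitted with edgeR 4.0.16 in R 4.3.3, with TMM scaling, on genes with at least 10 counts in all 6 libraries, with Benjamini-Hochberg adjustment over all genes of a fit. Standard errors were derived from the F statistic. Fits on ATP2A1 were also run on simulated counts with known slopes. Those counts had independent libraries and the same dispersion for every gene, so they do not bear on shared pigs or on the collagen fits. Alternatives used limma 3.58.1 and DESeq2 1.42.0, and tables and plots were made with Python 3.11.15, numpy 2.4.6, pandas 2.3.3 and matplotlib 3.10.9.

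Named genes are the 3 markers, the 10 largest slopes in each direction with a symbol and a mean of at least 5 CPM (the 5 smallest p-values where fewer than 3 genes passed), up to 4 members of each list per marker by p-value, listed genes at 0, the 10 lowest and highest coefficients of variation, the reference genes and the genes the study singled out or measured by RT-qPCR. Members beyond the rule, and those particular to single libraries, were chosen after their values were seen. The lists and markers were chosen with earlier results of these data known. Libraries of control pigs were left out, since the mixture within the Hyperloaded libraries is the subject. 1 gene particular to a single library is not reported here.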

Additional observations from a re-analysis of the deposited data

Results flagged for a closer look

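Of 36 summaries of the 6 libraries tested for a library far from the rest, 4 stood out, all through replicate 2. Chance alone gives about 1 in 20 for a single normally distributed summary. These summaries overlap, and their lists were chosen with earlier results known, so the 4 cannot be read against that rate. The muscle share was tested as a percent. On the log2 scale, neither ATP2A1 nor the means of the muscle fibre lists stood out. The skeletal muscle fibre lists took 7.79% of its counts, against 0.00706 to 1.08% in the other libraries. The mean log2 (CPM + 1) of the bone and hypertrophic cartilage genes was 4.73 in replicate 2, above all others, with a median of 2.65 over the 6. That of the nuclear-encoded respiratory chain was also highest in replicate 2, at 6.02, with a median of 4.70. That of the fibrous and outer annulus genes was lowest in replicate 2, at 9.33, with a median of 10.25.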

How the results depend on the processing

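No paired analysis was possible because a single group was examined and the labels do not say which libraries share a pig. With library sizes unscaled, 1357 genes rose and 96 fell with ATP2A1, 0 rose with COL2A1, 11 rose with COL1A2, and 548 transcripts were constant. Unscaled sizes also put the median slope of all genes on COL1A2 at -0.17, compared with 0.02 under TMM. DESeq2 gave 864 and 741 genes rising and falling with ATP2A1, 103 and 59 with COL2A1, and 442 and 750 with COL1A2, and limma voom 2 rising with COL2A1 and 60 with COL1A2. Without a filter 527 rose with ATP2A1 and 2 with COL2A1, and with 10 counts in at least 2 libraries 481 and 2. A COL1A2 axis from TMM-scaled CPM gave 294 rising. The rank of the library as axis gave 260 falling with ATP2A1, and 0 rising with COL2A1, 0 rising and 0 falling with COL1A2. A second term was the COL2A1 share for fits on ATP2A1, and ATP2A1 for fits on the collagen shares. It gave 74 falling with ATP2A1, 2 rising with COL2A1, and 0 rising and 0 falling with COL1A2. Leaving out 1 library in turn, 26 to 305 genes rose and 0 to 178 fell with ATP2A1, 0 to 30 rose and 0 to 7 fell with COL2A1, and 0 to 49 rose and 0 to 438 fell with COL1A2, while 1887 to 2665 transcripts were constant. With all but replicate 5, 37 rose and 6 fell with ATP2A1, with all but replicate 4, 61 and 30, with all but replicate 6, 95 and 9, and with all but replicate 1, 158 and 31. All 26 genes that rose with ATP2A1 without replicate 2 also rose with all 6. A limit of 1.3-fold left 479 constant transcripts, a limit of 2-fold gave 4159, and a minimum mean of 50 CPM gave 472. Of the 50 gene slopes recomputed under these settings, none changed sign, but many lost their call. Without replicate 2, 30 lost it and 4 gained one. With the rank as axis 21 lost it, and without replicate 4, 20 did. With ATP2A1 as a second term, 20 of the slopes on the collagen shares lost it. Slopes of the other genes named were not recomputed under all settings. Among the causes of these shifts, fewer libraries and other filters act by construction, and the others were not tested. Precision is lowest for muscle genes in replicate 1, where ATP2A1 rests on 12.9 counts although this library is the deepest.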

Other observations

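Heat shock genes gave 1 further pattern across the libraries. DNAJB1, a co-chaperone induced by heat, had 1299, 65.2, 179, 1329, 746 and 819 CPM in replicates 1 to 6, so that replicates 2 and 3 were the low libraries, and HSPH1, another chaperone of that response, had 429, 120, 177, 480, 289 and 343 CPM in the same order of low libraries. HSP90AB1, a constitutive chaperone, had 617 to 845 CPM. None of the 11 heat shock genes passed on any of the 3 markers. HBB, the beta chain of haemoglobin, had 326, 53.9, 29.8, 93.4, 394 and 91.2 CPM, with replicates 1 and 5 the high libraries. FOS, an immediate early transcription factor, had 3041 CPM in replicate 1 and 420 to 908 CPM in the others.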
